A study of Mus musculus with 2 samples.

Results

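Amino acid transport and the regulation of mTORC1 were examined through 39 genes in RNA of group 2 innate lymphoid cell (ILC2) progenitors from mouse bone marrow. The genes are a named list of transporters, mTOR complex subunits, Rag GTPases and their regulators, and mTORC1 substrates. All 39 were found by symbol among the 27179 genes of each library. The data hold 1 group of 2 libraries, called pool 1 and pool 2, each made from progenitors that were sorted by flow cytometry from a pool of 8 C57BL/6 mice of 8 weeks. The sources used here give no treatment, sex or sort antibodies. There is no control or mature ILC2 group, so the comparisons are between genes within these cells and between the pools. In bulk RNA, fewer cells of a type and less RNA per cell cannot be told apart.

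mTORC1 is a kinase complex on the lysosome surface that drives protein synthesis and cell growth when amino acids and growth signals are present. Amino acids enter through plasma membrane carriers. Inside the cell, sensor proteins report leucine and arginine to the GATOR complexes, which control the Rag GTPases. Active Rag GTPases, anchored by the Ragulator complex, bring mTORC1 to the lysosome, where the small GTPase Rheb switches it on. The TSC complex shuts Rheb off, and stress and energy signals act through TSC, the sestrins and the kinase AMPK. Lymphocytes raise amino acid uptake and mTORC1 activity when they are activated.

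The authors deposited reads normalised for gene length and library depth (RPKM), so levels can be compared between genes per length. The 2 files are headed with each other's sample codes, and the pools are named here by the sample each file was deposited under, so the names of the pools, and with them the sign of every pool difference, rest on that record. The depth was 20216146 reads in pool 1 and 19834586 in pool 2, as read from the steps between the deposited values. At that depth, 3 reads in a gene of 1 kb equal 0.148 RPKM in pool 1 and 0.151 RPKM in pool 2. Genes with 1 RPKM or more in each pool count as detected. All 10 listed ILC2 markers were detected, with the surface protein gene Thy1 highest by the mean, at 558 RPKM in pool 1 and 510.5 RPKM in pool 2. Of these, 2 were at least 1.5-fold apart between the pools, the transcription factor gene Id2 at 709.7 RPKM in pool 1 and 287 RPKM in pool 2, and the IL-33 receptor gene Il1rl1 at 173 and 262 RPKM. The summed level of listed markers of other cells was lower in pool 1 than in pool 2, at 962 and 2317 RPKM for 10 neutrophil and monocyte genes, 763 and 2147 for 8 erythroid genes, 174 and 717 for 11 eosinophil, mast cell and basophil genes, 279 and 444 for 7 T cell genes, and 35.1 and 57.1 for 6 B cell genes. It was higher in pool 1 for 7 stromal and endothelial genes, at 89.5 and 29.3 RPKM, and for 16 immediate early genes, which stimulated cells induce within minutes, at 10371 and 813 RPKM. Of the stromal and endothelial genes only Pecam1 was detected, higher in pool 2, and of all these markers only Cd8a was listed at 0 in both pools.

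Of the 39 genes, 37 were detected (94.9%), against 11013 of all 27179 genes (40.5%). The median level of the 39 genes was 4.23 on the log2(RPKM + 0.1) scale, which is used for all log2 values below, against -1.82 for all genes. Among detected genes, the median level was 4.25 (log2) for the list and 3.86 for all genes, and 13.5% of the list's detected genes had a mean of 100 RPKM or more, against 7.14% of all detected genes. The undetected genes were the transporter light chain Slc7a7 and the Rag GTPase Rragd, both below a relative in the list.

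**Figure D1:**
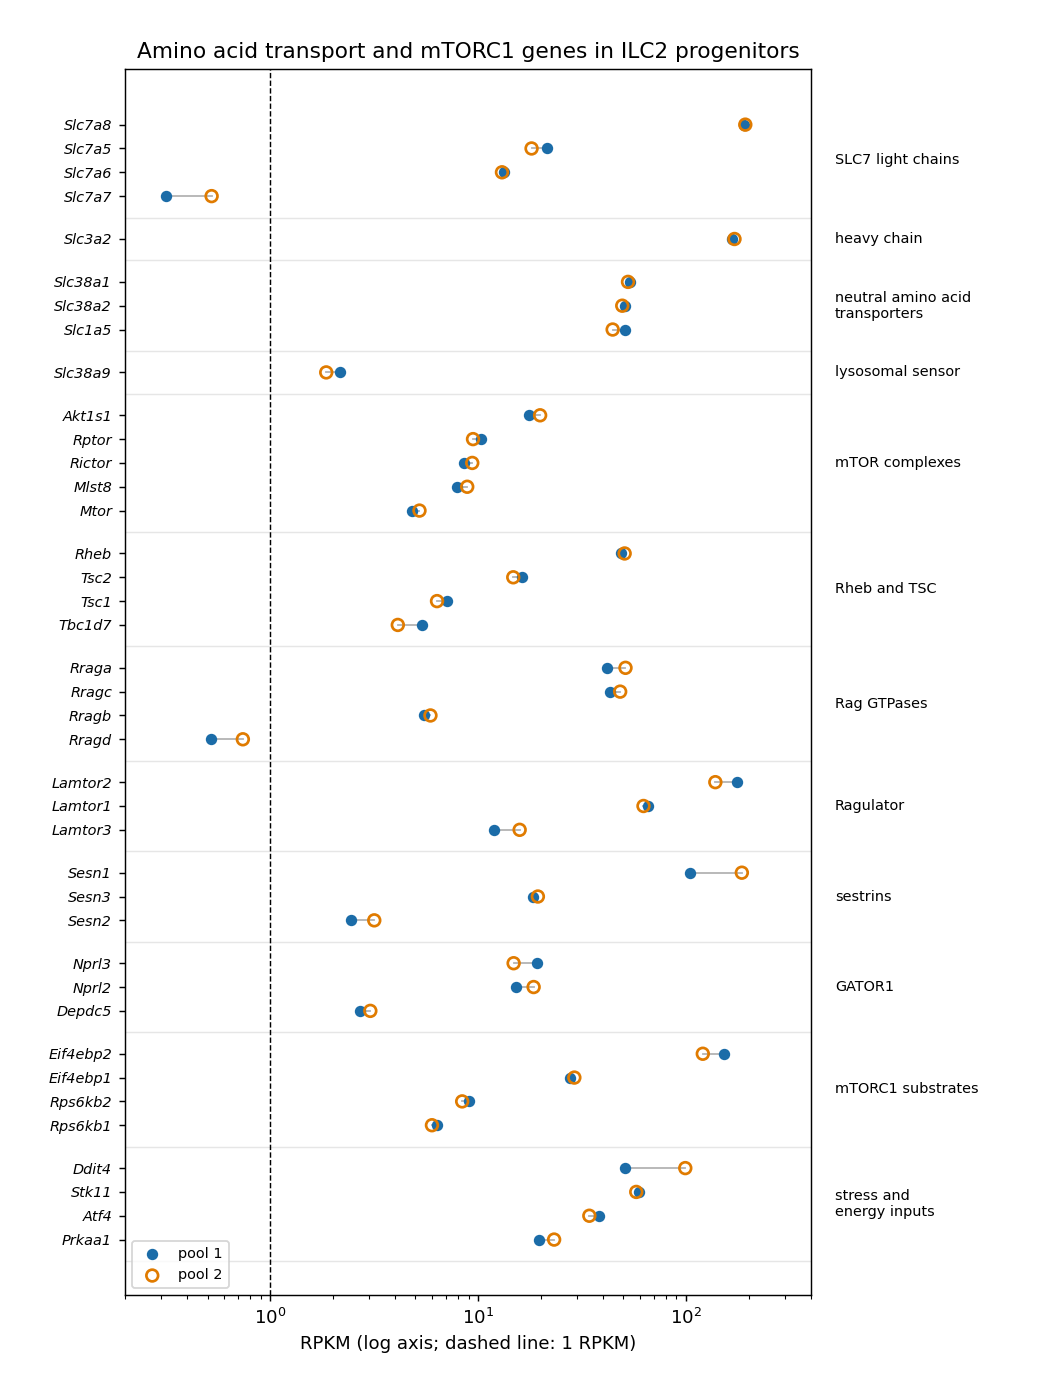
RPKM of the 39 genes in pool 1 (filled circles) and pool 2 (open circles) on a log axis, grouped by role and sorted by mean level, with 1 point per library and a grey line joining the pools. Slc7a8, Slc3a2, Lamtor2, Sesn1 and Eif4ebp2 have means of 100 RPKM or more, Slc7a7 and Rragd lie left of the 1 RPKM line in both pools, and the pools part most for Sesn1 and Ddit4.

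Among the transporters, the light chain Slc7a8 was far above its relatives. The SLC7 light chains carry amino acids only when joined to the heavy chain Slc3a2 (CD98), which takes them to the cell surface. Slc7a8, which encodes LAT2, a carrier of neutral amino acids (Entrez ID 50934, mm10 chromosome 14, 54722215 to 54781886), reached 189 RPKM in pool 1 and 193 RPKM in pool 2 (191 ± 2.47, SD, n = 2 pools). It ranked 336 of the 27179 genes. Slc7a5, which encodes LAT1, the leucine carrier that activated lymphocytes use (chromosome 8, 121881146 to 121907686), was at 21.4 and 18.1 RPKM in pools 1 and 2. Slc7a6, the exchanger y+LAT2, was at 13.4 RPKM in pool 1 and 13.0 RPKM in pool 2. Slc7a7, the exchanger y+LAT1, was at 0.316 and 0.523 RPKM in pools 1 and 2, which rest on at least 8 and 13 reads. The order of the light chains was thus the same in both pools, and no gap between neighbours in it was smaller than the spread of either gene over the pools.

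Slc7a8 exceeded Slc7a5 by 3.14 (log2) in pool 1 and 3.41 in pool 2, a mean of 3.27 ± 0.19 or 9.66-fold. It made up 84.4% of the summed RPKM of the 4 light chains in pool 1 and 85.9% in pool 2. Slc7a5 followed with 9.56% and 8.06%. Slc3a2 itself (chromosome 19, 8706882 to 8723369) was at 166 RPKM in pool 1 and 171 RPKM in pool 2 (168 ± 3.76). The 4 light chains together were at 1.35 times the RPKM of the heavy chain in pool 1 and 1.31 times in pool 2, whereas Slc7a5 alone lay below it by 3.09 ± 0.21 (log2). Slc7a7 and Slc7a8 lie 302 kb apart on chromosome 14, with 15 protein-coding genes between them, at levels on either side of the detection threshold.

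The other neutral amino acid carriers lay close together. Slc38a1, a sodium-coupled glutamine carrier (SNAT1), was at 53.7 RPKM in pool 1 and 52.6 RPKM in pool 2. Its relative Slc38a2 (SNAT2) was at 51.0 and 49.4 RPKM in pools 1 and 2. Slc1a5, the neutral amino acid exchanger ASCT2, was at 51.0 RPKM in pool 1 and 44.4 RPKM in pool 2. Slc38a1 and Slc38a2 are direct neighbours on chromosome 15, with 43953 bases and no protein-coding gene between them, and differed by 0.084 ± 0.011 (log2), with Slc38a1 higher in both pools. The difference of Slc1a5 from Slc38a2 changed sign between the pools, at 0.00049 (log2) in pool 1 and -0.15 in pool 2, so the order of these 2 genes was not resolved. Slc38a9, the lysosomal transporter that senses arginine for mTORC1, was the least abundant detected gene of the list at 2.17 and 1.86 RPKM in pools 1 and 2.

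**Figure D2:**
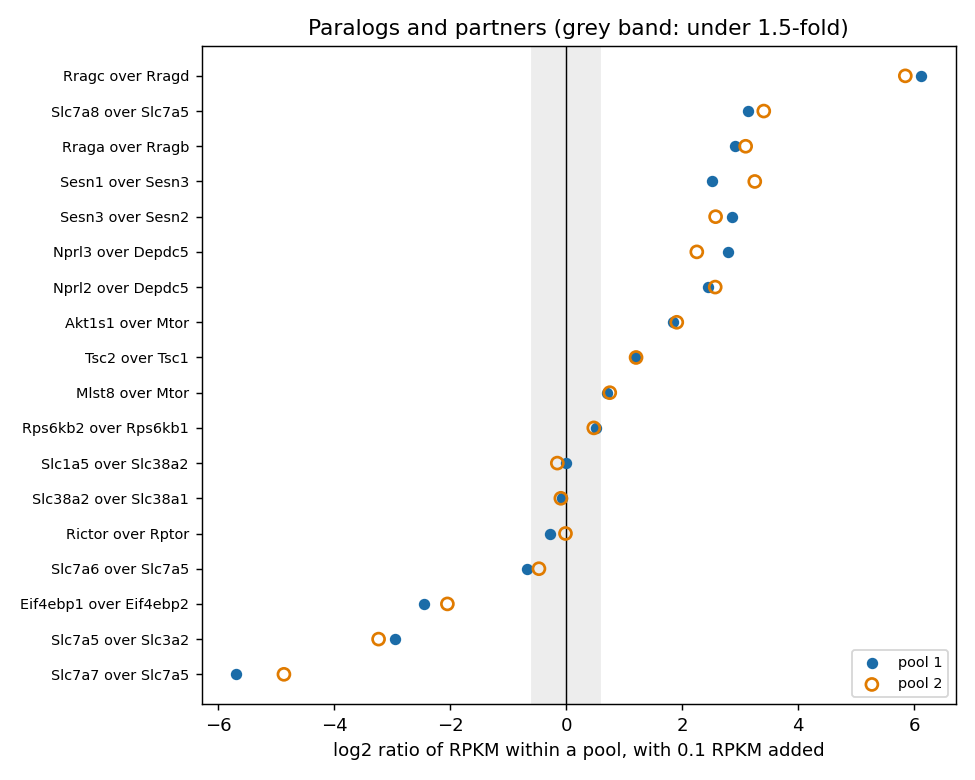
Log2 ratio of RPKM, with 0.1 RPKM added, between 18 fixed pairs of family members or partners, measured within pool 1 (filled circles) and within pool 2 (open circles). For 13 pairs both pools lie outside the grey band of 1.5-fold on the same side, from Rragc over Rragd at 5.98 to Slc7a7 over Slc7a5 at -5.28.

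Among the mTOR complex genes, Mtor, Rptor, Rictor and Mlst8 had means below the median of all detected genes, 14.6 RPKM. Only Akt1s1 lay above it. Mtor, the kinase shared by mTORC1 and mTORC2, was the lowest of 5 genes at 4.82 RPKM in pool 1 and 5.23 RPKM in pool 2. Rptor, the scaffold that defines mTORC1, was at 10.4 and 9.46 RPKM, and Rictor, the scaffold that defines mTORC2, at 8.56 and 9.38 RPKM in pools 1 and 2. Their mean difference, Rictor minus Rptor, was -0.14 ± 0.18 (log2), smaller than its spread over the pools. Mlst8, a subunit of both complexes, was at 7.88 RPKM in pool 1 and 8.87 RPKM in pool 2, 1.65-fold above Mtor. Akt1s1, which encodes the mTORC1 inhibitor PRAS40, was at 17.6 and 19.9 RPKM, 3.67-fold above Mtor (1.88 ± 0.044, log2).

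Rheb, the direct activator of mTORC1, was more abundant than every subunit of the TSC complex that restrains it. It was at 48.7 RPKM in pool 1 and 50.7 RPKM in pool 2. Tsc2, the subunit that switches Rheb off, was at 16.3 and 14.8 RPKM in pools 1 and 2, and its stabilising partner Tsc1 at 7.09 and 6.35 RPKM. Tsc2 exceeded Tsc1 by 1.198 ± 0.010 (log2), and this was the least variable of the 18 ratios between the pools. Tbc1d7, the smallest TSC subunit, was at 5.37 RPKM in pool 1 and 4.11 RPKM in pool 2.

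In each class of Rag GTPase, a single paralog carried most of the RNA. A Rag dimer pairs RagA or RagB with RagC or RagD. Rraga was at 41.7 RPKM in pool 1 and 51.2 RPKM in pool 2, and Rragb at 5.46 and 5.90 RPKM, a ratio of 7.52 in pool 1 and 8.54 in pool 2 (8.01-fold by the mean log2 ratio). Rragc was at 43.0 and 48.2 RPKM in pools 1 and 2. Rragd was at 0.519 RPKM in pool 1 and 0.739 RPKM in pool 2, on at least 53 and 74 reads, so it was measured although it missed the detection threshold. Rragc held 98.8% of the summed RPKM of RagC and RagD in pool 1 and 98.5% in pool 2. The dominant paralogs Rraga and Rragc differed by less than their spread over the pools, with means of 46.5 ± 6.67 and 45.6 ± 3.66 RPKM.

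Ragulator, which anchors the Rag dimer to the lysosome, was uneven across its 3 listed subunits. Lamtor2 was at 176 RPKM in pool 1 and 138 RPKM in pool 2. Lamtor1, the subunit that attaches the complex to the membrane, was at 65.5 and 62.4 RPKM. Lamtor3, which pairs with Lamtor2 in the complex, was at 11.9 and 15.8 RPKM in pools 1 and 2. Lamtor2 was higher in pool 1 and Lamtor3 in pool 2, and the 3 levels did not overlap. From the wider list, Lamtor4 and Lamtor5, the remaining subunits, had means of 61.3 ± 6.74 and 38.3 ± 2.08 RPKM.

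The sestrins, stress-inducible inhibitors of mTORC1, were led by Sesn1. It was at 105 RPKM in pool 1 and 186 RPKM in pool 2 (145 ± 57.0), 7.36-fold above Sesn3 by the mean log2 ratio. Sesn3 was at 18.4 and 19.4 RPKM in pools 1 and 2. Sesn2, a leucine sensor, was at 2.46 RPKM in pool 1 and 3.17 RPKM in pool 2. Sesn1 held 83.4% of the summed sestrin RPKM in pool 1 and 89.2% in pool 2. GATOR1 switches the Rag GTPases off, and the sestrins act on it through GATOR2. It had Nprl2 at 15.3 and 18.5 RPKM, Nprl3 at 19.3 and 14.8 RPKM and Depdc5 at 2.71 and 3.03 RPKM in pools 1 and 2. Nprl2 and Nprl3 exceeded Depdc5, the subunit that contacts the Rag GTPases, by 2.51 ± 0.085 and 2.52 ± 0.38 (log2).

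Among the substrates of mTORC1, Eif4ebp2 stood above the rest. The 4E-BPs hold back cap-dependent translation until mTORC1 phosphorylates them. Eif4ebp2 (chromosome 10, 61428491 to 61452790) was at 153 RPKM in pool 1 and 120.4 RPKM in pool 2, and Eif4ebp1 at 27.7 and 29.0 RPKM, a difference, Eif4ebp1 minus Eif4ebp2, of -2.25 ± 0.29 (log2). The S6 kinases were lower. Rps6kb2 was at 9.02 RPKM in pool 1 and 8.39 RPKM in pool 2, and Rps6kb1 at 6.31 and 6.00 RPKM, a ratio of 1.41 that was under 1.5-fold in both pools. Rps6kb2 overlaps Ptprcap on the opposite strand in 19.5% of its transcript 50-mers, and Ptprcap was at 953 RPKM in pool 1 and 1002 RPKM in pool 2. The strand setting of the counting is not given in the sources used here, and the part of Ptprcap in the Rps6kb2 value was not tested.

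The stress and energy inputs were all detected. Stk11, which encodes LKB1, the kinase that activates AMPK, was at 59.2 RPKM in pool 1 and 57.6 RPKM in pool 2. Prkaa1, the AMPK catalytic subunit alpha 1, was at 19.6 and 23.2 RPKM in pools 1 and 2. Atf4, the transcription factor of the amino acid response, was at 38.0 RPKM in pool 1 and 34.3 RPKM in pool 2. Ddit4, which encodes REDD1, a stress-inducible activator of TSC, was at 50.8 and 99.2 RPKM in pools 1 and 2.

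The pools were then compared gene by gene. Differences are log2 ratios of pool 1 over pool 2, so a negative value means higher in pool 2. With 1 library a side no test can be made, and a sign-flip test over 2 pools cannot give a p under 0.5, so genes were called apart by fold alone. Of the 37 detected genes, 2 were at least 1.5-fold apart and 0 were 2-fold apart. Among all 11013 detected genes, 8.45% were at least 1.5-fold apart, 2.6% higher in pool 1 and 5.86% in pool 2, and 2.56% were 2-fold apart, 0.962% higher in pool 1 and 1.6% in pool 2, so the list's count at 1.5-fold lies near or under the background. Both called genes were higher in pool 2. The median log2 ratio was -0.026 for the list and -0.044 for all detected genes, and the median size of the ratio without its sign was 0.16 and 0.17. The list split into 18 genes higher in pool 1 and 19 higher in pool 2 (51.4%, against 57.3% of all detected genes), and 27 of the 37 lay within 1.2-fold (73.0%, against 67.1% of all detected genes).

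**Figure D3:**
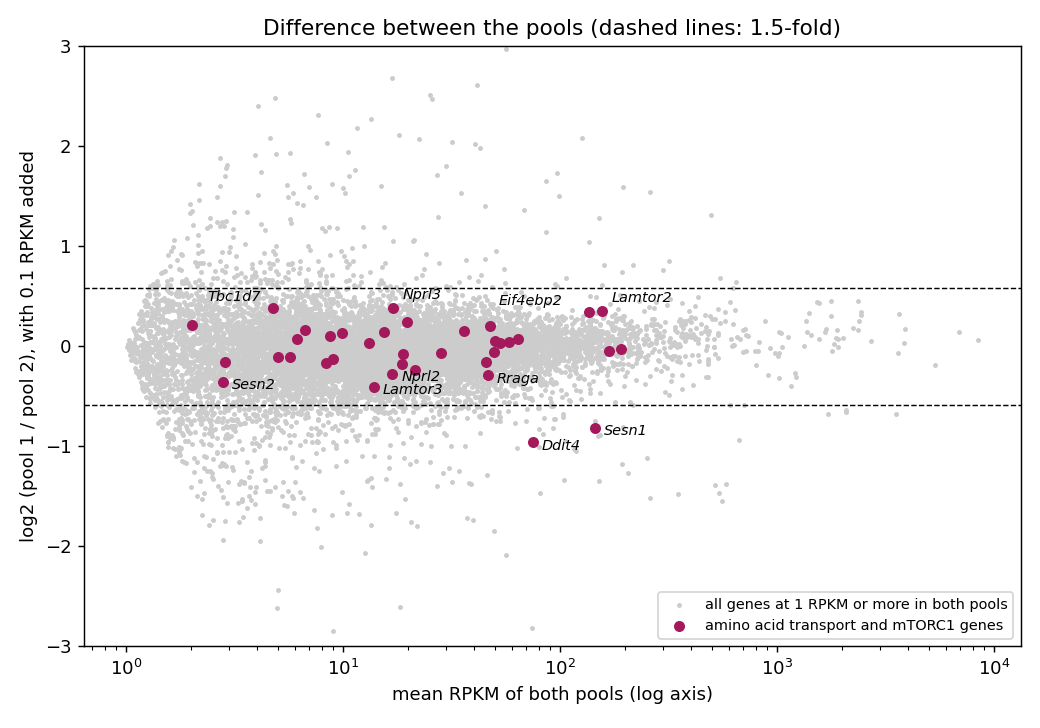
Log2 ratio of pool 1 over pool 2, with 0.1 RPKM added, against the mean RPKM of both pools on a log axis, for all 11013 detected genes (grey, of which 16 lie outside the plotted range) and for the 37 detected genes of the list (red, named where at least 1.2-fold apart). Ddit4 at -0.96 and Sesn1 at -0.82 lie below the dashed line of 1.5-fold, and the other 35 lie between the lines.

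Both genes past 1.5-fold encode brakes on mTORC1, but other brakes in the list lay on both sides. The TSC genes Tsc1, Tsc2 and Tbc1d7 were higher in pool 1, at 0.16, 0.14 and 0.38. Of GATOR1, Nprl3 was higher in pool 1 at 0.38, while Nprl2 and Depdc5 were higher in pool 2 at -0.28 and -0.16. The inhibitor gene Akt1s1 was at -0.18. Sesn1 (Entrez ID 140742, chromosome 10, 41810574 to 41908436) was at 105 RPKM in pool 1 and 186 RPKM in pool 2, a log2 ratio of -0.82. Its plain ratio of pool 1 over pool 2 was 0.566 (95% exact Clopper-Pearson counting interval 0.549 to 0.583). Ddit4 (Entrez ID 74747, chromosome 10, 59949675 to 59951770) was at 50.8 RPKM in pool 1 and 99.2 RPKM in pool 2, a log2 ratio of -0.96 and a plain ratio of 0.512 (interval 0.483 to 0.543). The intervals rest on at least 7087 and 12291 reads for Sesn1 and 1731 and 3315 for Ddit4 in pools 1 and 2. They cover counting error only and say nothing of how far pools of mice vary. The other sestrins were closer between the pools, at -0.077 for Sesn3 and -0.35 for Sesn2. The 3 detected Rag GTPases were also higher in pool 2, at log2 ratios of -0.29 to -0.11, each under 1.5-fold, in a direction that 57.3% of all detected genes share. Rragd, which missed detection, was at -0.44. The counting interval of the plain ratio included 1 for Rragb (0.776 to 1.10) and Rragd (0.484 to 1.01).

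The genes next in size of difference lay on both sides. Lamtor3 was lower in pool 1 at -0.41 and Sesn2 at -0.35, while Nprl3 was higher in pool 1 at 0.38, Tbc1d7 at 0.38, Lamtor2 at 0.35 and Eif4ebp2 at 0.34. Tbc1d7 rests on at least 137 and 103 reads in pools 1 and 2, and its counting interval for the ratio was 1.0033 to 1.70. The transporters Slc7a8, Slc3a2, Slc38a1, Slc38a2 and Slc7a6 were close to equal in the pools, at -0.046 to 0.046. Nprl3 lies 16.0 kb from the alpha-globin gene Hba-a1 on chromosome 11, and its introns are known to hold enhancers of the alpha-globin genes in red cell precursors. Hba-a1 was at 134 RPKM in pool 1 and 385 RPKM in pool 2, the opposite direction to Nprl3.

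Genes that mark other cells or recent stimulation moved with the pools as well. Higher in pool 2 were all 9 detected of 10 neutrophil and monocyte markers (median log2 ratio -0.89), all 8 erythroid markers (-1.33), all 6 detected of 7 T cell markers (-0.70), both detected of 6 B cell markers (-0.77) and 8 of 11 eosinophil, mast cell and basophil markers (-0.99), with the summed levels given above. The highest of each by the mean of the pools were S100a9 at 324 and 842 RPKM, Hba-a2 at 284 and 830 RPKM, Cd3g at 104 and 195 RPKM, Cd79b at 33.5 and 47.8 RPKM and the eosinophil gene Prg2 at 27.2 and 471 RPKM in pools 1 and 2. Higher in pool 1 were the basophil and mast cell genes Mcpt8 at 26.7 and 16.6 RPKM, Prss34 at 42.5 and 33.0 RPKM and Fcer1a at 2.99 and 1.33 RPKM in pools 1 and 2. The stromal genes Col1a1, Col1a2 and Sparc were also higher in pool 1. They were at 40.5, 18.7 and 8.499 RPKM in pool 1 and 0.889, 0.451 and 0.461 RPKM in pool 2. Each thus missed the detection threshold through pool 2. Of the same list, Cxcl12 was higher in pool 1, at 0.325 and 0.176 RPKM in pools 1 and 2. Pdgfrb, at 0.174 and 0.82 RPKM in pools 1 and 2, Pecam1 and Cdh5 were higher in pool 2. All 14 detected of 16 immediate early genes were higher in pool 1, with a median of 3.30 and Zfp36 highest by the mean at 2786 RPKM in pool 1 and 120.3 RPKM in pool 2. The part of these cells and of this response in the Sesn1 and Ddit4 values was not tested.

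The promoters of Sesn1 and Ddit4 are shown because these are the 2 genes of the list past 1.5-fold. RefSeq lists 2 starts for Sesn1 and 1 for Ddit4. The 250 bases upstream of each start are given below on the coding strand, 5′ to 3′, in GRCm38.p6, with capitals for the CCAAT box (CCAAT) and the GC box (GGGCGG) on either strand, where neighbouring GC boxes overlap.
Sesn1 upstream start, chr10:41810324-41810573, plus strand: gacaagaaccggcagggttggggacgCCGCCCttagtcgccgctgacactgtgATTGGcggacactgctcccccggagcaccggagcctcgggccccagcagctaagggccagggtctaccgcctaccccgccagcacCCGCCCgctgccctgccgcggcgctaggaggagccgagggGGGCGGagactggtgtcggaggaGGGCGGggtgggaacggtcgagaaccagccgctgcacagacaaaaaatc
Sesn1 downstream start, chr10:41887189-41887438, plus strand: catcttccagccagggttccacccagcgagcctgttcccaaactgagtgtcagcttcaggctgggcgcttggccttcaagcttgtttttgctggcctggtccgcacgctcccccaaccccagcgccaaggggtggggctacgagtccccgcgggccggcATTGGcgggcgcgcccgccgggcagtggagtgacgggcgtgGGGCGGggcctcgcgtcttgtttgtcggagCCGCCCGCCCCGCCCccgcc
Ddit4, chr10:59951771-59952020, minus strand: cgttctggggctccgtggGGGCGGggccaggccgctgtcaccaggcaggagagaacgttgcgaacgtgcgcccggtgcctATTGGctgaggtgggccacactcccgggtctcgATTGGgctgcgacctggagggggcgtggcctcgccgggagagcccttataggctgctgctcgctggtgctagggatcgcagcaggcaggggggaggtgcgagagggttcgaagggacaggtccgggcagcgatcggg
Both genes had a CCAAT box and a GC box at each start. Among all 32851 RefSeq promoter windows of 300 bases (250 before the start and 50 after), 37.4% held a CCAAT box and 35.7% a GC box, and among the windows of detected genes 37.8% and 63.3%, so neither is particular to these genes. The forkhead core (GTAAACA, either strand), which FOXO factors bind, was found once for Sesn1, 23 bases into the transcript from the upstream start, and not for Ddit4. It was in 3.65% of all windows and 2.61% of those of detected genes. Of the list's 39 windows, 2 (5.13%) held it. The other was that of Stk11, a gene at 59.2 and 57.6 RPKM in pools 1 and 2. The C/EBP-ATF composite element (TGATGNAA), the cAMP response element (TGACGTCA) and the full glucocorticoid receptor palindrome had no match in the windows of Sesn1 or Ddit4. A match is a description of the letters and not a bound site, and no readout of binding is part of these data.

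Across the list, 33 of the 39 genes had a RefSeq promoter entry, with 39 windows in all. Slc7a5, Slc1a5, Slc38a1, Lamtor3, Eif4ebp1 and Rps6kb2 had none. Of the 39 windows, 33 (84.6%) had a CpG ratio (observed over expected) of 0.6 or more, against 71.8% of the windows of detected genes and 35.8% of all windows, so most of the list has CpG-rich promoters like other expressed genes. The E-box CACGTG, which MYC and TFEB family factors bind, was in 5 windows (12.8%), those of Rragb, Rragc, Rheb, Lamtor1 and Tbc1d7, against 10.46% of the windows of detected genes and 7.15% of all. Rragb is shown because its window alone held 3 of them, beginning at -127, -36 and -3 from the start, although Rragb was the lower paralog. Capitals mark E-boxes, CCAAT boxes and GC boxes, and the last capitals are the part of the third E-box that lies upstream of the start.
Rragb, chrX:153139708-153139957, plus strand: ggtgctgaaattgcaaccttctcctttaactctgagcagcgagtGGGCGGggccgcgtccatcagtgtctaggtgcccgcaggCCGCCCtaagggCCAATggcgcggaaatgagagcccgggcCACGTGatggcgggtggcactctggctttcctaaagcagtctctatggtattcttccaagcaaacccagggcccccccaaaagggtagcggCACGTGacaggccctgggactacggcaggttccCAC
The window of Rraga, the more abundant paralog, held no E-box.

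Other genes of the same pathway, from 8 fixed lists of 108 genes, were set beside these. Of them 106 were matched, 83 were detected, and their median level was 3.33 (log2), below the 4.23 of the 39 genes. Of the 83 detected genes, 11 were at least 1.5-fold apart (13.3%, beside the 8.45% of all detected genes), 3 of them higher in pool 1 and 8 in pool 2. Their median log2 ratio was -0.025. Within each list genes were ranked by the mean of the pools, and the order of some close neighbours differed between pool 1 and pool 2, so ranks are given for orientation only.

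Other amino acid transporters were mostly low, with 15 of 28 detected and a median level of 1.21 (log2). The most abundant were Slc38a10 at 44.8 ± 1.91 RPKM, Slc43a2, a carrier of large neutral amino acids (LAT4), at 28.6 ± 6.53 and the taurine carrier Slc6a6 at 24.7 ± 0.874. Slc7a9, Slc1a2, Slc38a3 and Slc38a4 were listed at 0 in both pools. None was 1.5-fold higher in pool 1, and 3 were higher in pool 2, namely Ctns, the lysosomal cystine exporter, at 7.30 and 11.7 RPKM in pools 1 and 2, Slc43a3, which is known to carry purine bases, at 4.70 and 7.29 RPKM, and Slc38a5 at 1.57 and 2.47 RPKM.

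Among the other subunits and regulators of the mTOR complexes, 6 of 8 were detected and 0 were 1.5-fold apart. Mapkap1, an mTORC2 subunit, led at 22.1 ± 2.73 RPKM, followed by the assembly factors Tti1 at 12.9 ± 1.64 and Telo2 at 9.84 ± 1.22, and Grb10, an inhibitory adaptor, was lowest at 0.189 ± 0.0505. All 7 other Ragulator, folliculin and lysosomal anchor genes were detected, led by the proton pump subunit Atp6v0d1 at 65.8 ± 3.83 RPKM, Lamtor4 and Lamtor5, with Fnip2 lowest at 1.52 ± 0.293. Fnip1, a partner of folliculin, was at 3.90 RPKM in pool 1 and 6.33 RPKM in pool 2 (-0.69, log2).

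All 11 matched genes of GATOR2, KICSTOR and the amino acid sensors were detected. Castor1, the arginine sensor that binds GATOR2 and is listed in the files as Gatsl3, was highest by the mean, at 54.5 RPKM in pool 1 and 40.6 RPKM in pool 2 (47.6 ± 9.78). Sec13 and Seh1l, GATOR2 subunits that also serve the nuclear pore, were at 46.6 ± 5.19 and 35.04 ± 4.60 RPKM. Sec13 lay below Castor1 in pool 1, at 43.0 RPKM, and above it in pool 2, at 50.3 RPKM, so their order was not resolved, and the GATOR2 subunit Wdr59 was lowest by the mean at 3.26 ± 0.788. Castor2, the paralog of Castor1, listed as Gatsl2, was at 5.81 RPKM in pool 1 and 3.63 RPKM in pool 2 (0.67, log2). Castor1 thus lay above the sestrin Sesn2 and the lysosomal arginine sensor Slc38a9 in both pools. It lay below the sestrin Sesn1, at 105 RPKM in pool 1 and 186 RPKM in pool 2.

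Targets of ATF4 were split, with 10 of 17 detected and a median level of 2.20 (log2). The serine and one-carbon enzyme Shmt2 led at 55.9 ± 3.41 RPKM, then Aldh18a1, which makes proline precursors, at 37.1 ± 1.35 and the serine phosphatase Psph at 24.0 ± 0.894. Chac1, which degrades glutathione, and Cth, an enzyme of cysteine synthesis, were listed at 0 in both pools. Asns, the asparagine synthetase that amino acid shortage induces, was at 2.52 RPKM in pool 1 and 3.85 RPKM in pool 2 (-0.59, log2), and the transcription factor gene Cebpb at 36.2 and 8.51 RPKM (2.07, log2). Cebpb was thus higher in pool 1 and Asns in pool 2, while Atf4 itself differed by 0.15 (log2).

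The eIF2 alpha kinases and phosphatases, which set ATF4 translation, were all detected. The 3 highest of the 9 genes by the mean were Eif2ak1 at 40.8 ± 3.42 RPKM, Ppp1r15a at 40.7 ± 34.9 and Ppp1r15b at 37.8 ± 1.07, an order that differed between the pools, and Eif2ak4, the GCN2 kinase that senses uncharged tRNA, was lowest at 3.41 ± 0.0819. Ppp1r15a, a stress-inducible phosphatase subunit, was at 65.3 RPKM in pool 1 and 16.0 RPKM in pool 2 (2.02, log2), while its constitutive relative Ppp1r15b was at 38.6 and 37.1 RPKM. As with Cebpb, the direction is that of the immediate early genes, whose part in it was not tested.

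Of the other AMPK and LKB1 complex subunits, 9 of 10 were detected. Cab39, the scaffold of the LKB1 complex known as MO25 alpha, was highest at 119 ± 2.63 RPKM, then the AMPK subunit Prkab1 at 34.3 ± 1.19 and Cab39l, the paralog of Cab39, at 31.5 ± 14.8. Prkaa2, the second AMPK catalytic subunit, was lowest at 0.0844 RPKM in pool 1 and 0.0553 RPKM in pool 2. Cab39l was at 20.99 RPKM in pool 1 and 41.95 RPKM in pool 2 (-0.995, log2), whereas Cab39 was at 118 and 121 RPKM.

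Of the translation and lysosome effectors, 16 of 17 were detected, with a median level of 4.19 (log2). Eef2, the elongation factor, was highest at 1886 ± 146 RPKM, followed by the initiation factors Eif4g2 at 173 ± 6.86 and Eif4b at 167 ± 19.9. Ddit4l, the paralog of Ddit4, was listed at 0 in both pools. None was 1.5-fold higher in pool 1, and 2 were higher in pool 2. Pdcd4, an inhibitor of translation that S6 kinase marks for degradation, was at 72.5 RPKM in pool 1 and 109.6 RPKM in pool 2 (-0.60, log2), and Eif4e, the cap-binding protein that 4E-BPs hold, at 8.74 and 14.3 RPKM (-0.71, log2).

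**Figure D4:**
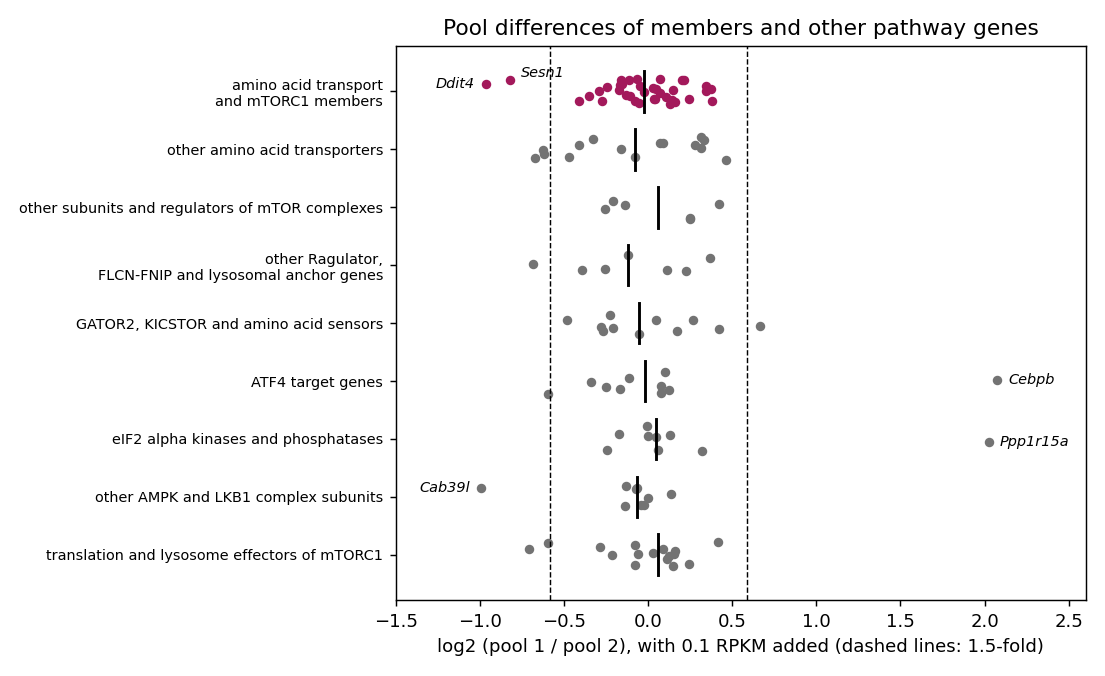
Log2 ratio of pool 1 over pool 2, with 0.1 RPKM added, for each detected gene of the amino acid transport and mTORC1 list (red) and of 8 other pathway lists (grey), with a black bar at each median and dashed lines at 1.5-fold. The list medians lie between -0.12 and 0.060, and the named genes Ddit4, Sesn1 and Cab39l lie toward pool 2 and Cebpb and Ppp1r15a toward pool 1.

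How far the counting could mix genes was checked on their transcripts. None of the 18 compared pairs shared a stretch of 50 bases on either strand in the GENCODE M21 transcripts, and read length and mismatch settings are not given. Of the 39 genes, 31 shared under 5% of their 50-mers with any other gene on either strand. The others were Rps6kb2, Lamtor1 (19.3% with genes on the opposite strand, led by Lrrc51, and 8.09% on the same strand), Mlst8 (16.4%, led by Bricd5), Nprl3 (16.1%, led by Mpg), Tsc2 (8.08%, led by Pkd1), Rragc (6.54%) and Slc7a7 (5.25%, with Oxa1l) on the opposite strand and Lamtor3 (5.46%, with Gm5900) on the same strand. Apart from Ptprcap, the overlapping partners of Lamtor1, Mlst8, Nprl3 and Tsc2 were at 0 to 13.6 RPKM in both pools. Pkd1 was at 13.6 and 10.2 RPKM beside Tsc2 at 16.3 and 14.8 RPKM in pools 1 and 2. Mpg was at 10.5 and 10.1 RPKM beside Nprl3 at 19.3 and 14.8 RPKM. Levels of the partners of Rragc, Slc7a7 and Lamtor3 are not given here. The part of any partner in the values of these genes was not tested.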

How the data were processed

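RNA of 2 libraries of sorted ILC2 progenitors, each from a pool of 8 mice, was analysed. Per the labels' protocols, 100 ng of total RNA entered the Illumina TruSeq RNA preparation. Per the submitters' processing notes, the tools were CASAVA 1.8.2, edgeR 3.8.2, edgeR 3.22.0 and featureCounts and the build was mm10. In the sources used here, their roles, the aligner, the annotation and the strand setting are not given. The authors deposited RPKM per Entrez gene. In both files the value column is headed with the code of the opposite pool (0 of 2 headings match). The record of deposit decided the assignment; were the headings correct, pool 1 and pool 2 would trade places throughout and every pool ratio would change sign.

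Library totals were searched between 15000000 and 25000000 reads as those at which deposited RPKM values give whole reads. A whole length of 20 to 130000 bases then gave whole reads in both pools for 17233 of 17233 genes above 0 (100%; relative tolerance 2e-09 plus 6e-10 RPKM of rounding). With totals off by about 1 part in 1000, 6.5% of 1000 genes did so. Read numbers are lower bounds, since a multiple of the length also gives whole reads. No count model was run, because 1 group of 2 libraries leaves no condition to test.

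Levels were log2(RPKM + 0.1), averaged over the pools, and differences were taken on that scale, which understates low genes. Genes were called apart at 1.5-fold and 2-fold among genes at 1 RPKM or more in both pools. Named genes are all 39 of the list and, of each pathway list, the 3 highest by the mean of the pools, the lowest and those 1.5-fold apart; of each marker list, the highest and those listed at 0. The CCAAT and GC boxes, Hba-a1, Cpa3, Pdgfrb, the markers 1.5-fold apart or against their list and the genes that share sequence were picked after values or sequences were seen. The 39 genes, the other lists and the pairs were chosen with earlier results of these data known. Gene positions and promoters came from RefSeq (GRCm38.p6), the build that mm10 names, and transcripts from GENCODE M21. Python 3.11.15 with pandas 2.3.3, numpy 2.4.6 and SciPy 1.17.1 was used, and the recovery of reads and the fold calls were checked on simulated data. Alternatives were other thresholds, pseudocounts and scalings and single pools.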

Additional observations from a re-analysis of the deposited data

How the results depend on the processing

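The counts of detected genes and of genes 1.5-fold and 2-fold apart stayed within 1.5 times of 37, 2 and 0 under every alternative run for them. The median level of the 39 genes, 4.23 (log2), was 5.29 when each library was rescaled to a common TPM sum, 4.30 with a pseudocount of 1 and 4.23 with 0.01, and 4.21 to 4.22 in single pools. The median log2 ratio of the list stayed near 0 and took either sign, from -0.052 on the rescaled values to 0.018 with median-of-ratios scaling, so it gives no direction. The 18 gene ratios were recomputed under other pseudocounts and in single pools, giving 72 values. Of these, 10 moved by more than the SD between pools, all of them under other pseudocounts. With 2 pools a single-pool ratio always lies within that SD of the mean, so single pools could not move by this rule. None of the 13 ratios over 1.5-fold changed sign. Rragc over Rragd fell to 4.84 and Slc7a7 over Slc7a5 was -3.87 with a pseudocount of 1. Pool differences have no single-pool alternative. No paired analysis was possible because there is only 1 group. Depth limits Slc7a7, and the number of pools limits every difference between them.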
